A study of Mus musculus with 12 samples.

Results

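The genes described here carry, import, activate or answer to thyroid hormone in the liver. They are Serpina7, Ttr, Slc16a10, Dio1, Thrsp, Gpd2 and Bcl3, 7 of the 38087 genes in the count table, and they were taken by gene symbol in all 12 libraries. Serpina7 was chosen by its measured values, since it fell with ghrelin in these libraries, and the other 6 were listed with it as genes of thyroid hormone handling with earlier results of these data known. The difference between the ghrelin and PBS groups is therefore given as a description for each of the 7 genes, and it supports nothing on its own.

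The libraries are total RNA sequencing of whole liver of male mice of the strain C57BL/6j, germ-free, that is kept without microbes, and aged 13 to 16 weeks. The 6 libraries of the ghrelin group came from mice given rat ghrelin, a stomach hormone that stimulates appetite and growth hormone release, at 10 µg per mouse under the skin. The 6 libraries of the PBS group came from mice given phosphate-buffered saline. Both groups were injected daily for 5 days at zeitgeber time 2 (h after lights on), and the livers are labelled with the same zeitgeber time, so no group was untreated and no group was colonised. The labels do not say whether each library was a separate animal, so p-values measure the spread between libraries. Total counts per library ranged from 15775059 to 22302533, and levels are given as CPM, the counts of a library scaled to a common total with TMM factors, with SD over the 6 libraries of a group.

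Thyroid hormone circulates mostly as thyroxine bound to plasma carriers made by the liver, chiefly thyroxine-binding globulin, transthyretin and albumin. Hepatocytes take the hormone up through membrane transporters and convert thyroxine into the more active triiodothyronine with type 1 deiodinase, a selenoenzyme. Triiodothyronine then binds nuclear receptors, mainly the beta receptor in liver, which control genes of lipid synthesis and energy metabolism, and the gene of type 1 deiodinase is itself a well known target.

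Serpina7 encodes thyroxine-binding globulin, the carrier that binds thyroxine most tightly. It measured 88.7, 92.2, 98.4, 110.9, 70.8 and 65.8 CPM in the libraries PBS 1 to PBS 6. In ghrelin 1 to ghrelin 6 it measured 40.1, 45.0, 27.9, 42.8, 16.5 and 24.5 CPM. All 6 ghrelin libraries lay below the lowest PBS library, PBS 6, and ghrelin 5 was the lowest of the 12. The group means were 87.8 ± 17.0 and 32.8 ± 11.5 CPM (SD, n = 6 each), so the ghrelin mean was 37.3% of the PBS mean, and the fitted log2 fold change was -1.42 (SE 0.21). The counts behind these levels ran from 266 to 2131 reads per library. Because these are bulk samples, fewer cells of a type and less RNA per cell cannot be told apart for this or any later gene.

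Serpina7 also varied between libraries of the same group more than most genes of its level. Its within-group SD on the log2 scale was 0.45, against a median of 0.12 for the 500 genes nearest to it in mean level, which placed it at percentile 97.8. Dio1 stood similarly at percentile 97.6, and Thrsp and Bcl3 at 99.4 and 99.2.

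Of the 7 members, all of which passed the filter on low counts, 1 was called by the quasi-likelihood test of edgeR with Benjamini-Hochberg adjustment over all 14170 tested genes, at an adjusted p under 0.05. The share called over all tested genes was 0.106%. That member is Serpina7, whose adjusted p of 0.0206 in edgeR comes from the contrast it was chosen on. It was also the 1 member whose groups did not overlap, which was so for 0.826% of tested genes. An unadjusted p under 0.05 was seen for 4 members and for 13.4% of tested genes. DESeq2, a second count test, called 2 members, Serpina7 and Dio1, beside 1.83% of the 11146 genes it gave an adjusted p. The same shares over all genes apply to the counts of every gene list below.

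The Serpina7 call was kept in 10 of the 12 fits that each left out 1 library. It was lost without ghrelin 1, at a log2 fold change of -1.48 and an edgeR adjusted p of 0.0545, and without ghrelin 3, at -1.37 and an adjusted p of 0.0566. No gene of the whole table was called in either case. It was also lost with the robust form of the edgeR test, where the log2 fold change stayed at -1.42 and the adjusted p was 0.0839. Over the 12 fits that each left out 1 library, the log2 fold change ran from -1.53 without ghrelin 2 to -1.28 without ghrelin 5.

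**Figure D1:**
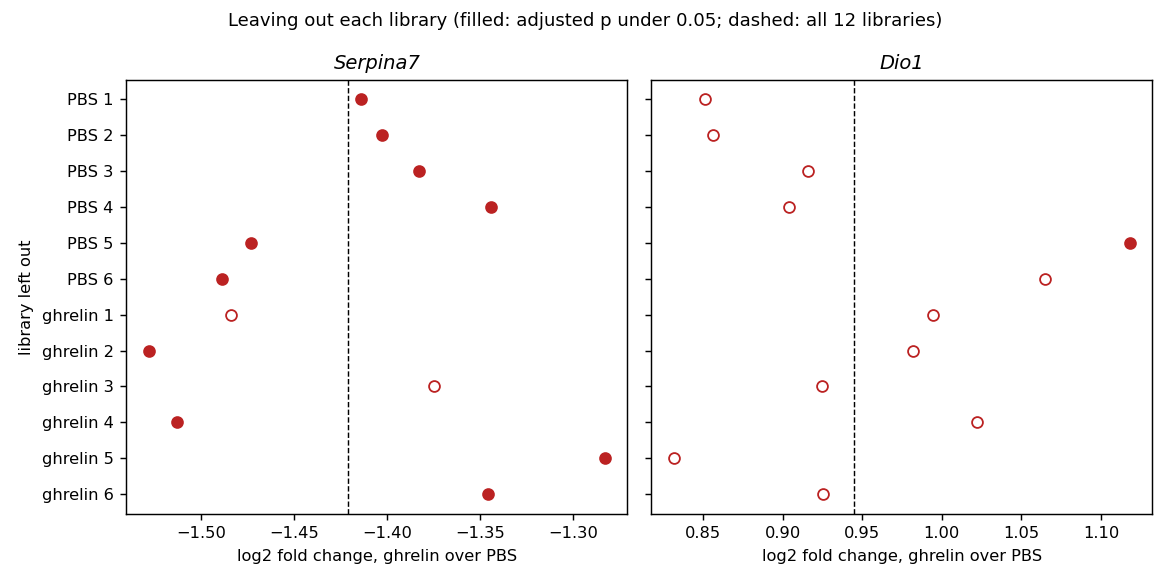
The log2 fold change (ghrelin over PBS, x axis) of Serpina7 and of Dio1 is plotted for each fit that leaves out the library named on the y axis, with filled points for an edgeR adjusted p under 0.05 and a dashed line for the fit of all 12 libraries. Serpina7 is open without ghrelin 1 and without ghrelin 3, and Dio1 is filled only without PBS 5, where its log2 fold change was 1.12.

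Serpina7 (ENSMUSG00000031271) spans chromosome X from 139079257 to 139085236 on the minus strand of GRCm38, the assembly of mm10, in GENCODE M21, with 6 exon blocks and 2448 exonic bases. Dio1 (ENSMUSG00000034785) spans chromosome 4 from 107291465 to 107307169, also on the minus strand, with 5 exon blocks and 1970 exonic bases. Both are protein-coding, and neither overlaps another annotated gene. The 250 bases before a start site of each are shown because these are the members with the largest difference between the groups in each direction. They are from RefSeq on GRCm38.p6, chrX:139085237-139085486 for Serpina7 and chr4:107307169-107307418 for Dio1, both read on the minus strand from 5′ to 3′. The capitals mark GTTAAT, a half-site of the liver factor HNF1.
Serpina7: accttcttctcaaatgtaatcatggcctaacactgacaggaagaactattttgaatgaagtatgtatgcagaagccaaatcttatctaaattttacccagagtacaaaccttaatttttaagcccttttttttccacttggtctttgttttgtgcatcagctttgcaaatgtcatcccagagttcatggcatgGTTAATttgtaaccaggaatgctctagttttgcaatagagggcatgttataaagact
Dio1: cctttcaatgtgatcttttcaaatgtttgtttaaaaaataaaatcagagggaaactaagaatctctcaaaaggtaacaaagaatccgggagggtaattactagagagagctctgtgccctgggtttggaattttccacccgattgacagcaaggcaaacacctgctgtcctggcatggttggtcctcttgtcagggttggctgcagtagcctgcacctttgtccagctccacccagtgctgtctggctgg

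In the RefSeq windows of 250 bases before to 50 bases after each start, 5 motifs were searched on both strands. GTTAAT was in 7.10% of the 32851 windows and began at position -57 of the Serpina7 window whose upstream part is shown. Serpina7 had another RefSeq start, from which the same site began at position -74. Slc16a10 also held GTTAAT, at position -232. AGGTCA, the half-site of thyroid hormone receptors and of many other nuclear receptors, was in 16.3% of windows, and its direct repeat with a spacing of 4 bases was in 5 windows. TTCNNNGAA, the palindrome bound by STAT factors, was in 8.30% and CCAAT in 37.4%. Neither Serpina7 window held any of the last 4 motifs and the Dio1 window held none of the 5, which says only that these letters are not in these windows. Of the 7 members, 6 had a window in that table.

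Ttr encodes transthyretin, which carries thyroxine and also the retinol-binding protein complex. Its lowest, median and highest libraries were 4396, 4766 and 5616 CPM in the PBS group and 4629, 4893 and 5387 CPM in the ghrelin group. The groups overlapped throughout, with means of 4825 ± 429 and 4954 ± 328 CPM (SD, n = 6 each) and a log2 fold change of 0.04 (SE 0.07). Alb, which encodes albumin, the carrier with the largest capacity, went from 65445 ± 9520 to 57655 ± 6110 CPM, a log2 fold change of -0.18 (SE 0.10) that did not pass the edgeR test (adjusted p = 0.449).

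Per kilobase of exon, Serpina7 was the least abundant of the 3 carrier transcripts. It measured 35.9 ± 6.93 CPM per kb with PBS and 13.4 ± 4.70 with ghrelin, against 4068 ± 362 and 4177 ± 277 for Ttr and 27940 ± 4065 and 24620 ± 2609 for Alb. On that scale the mean level of Ttr was 113 times that of Serpina7 in the PBS group and 312 times in the ghrelin group. Of 12 other plasma carriers of hormones, vitamins and metals, 10 were tested and 0 were called by edgeR or by DESeq2, with 2 at an unadjusted p under 0.05, both higher. Serpina6, the corticosteroid-binding globulin, showed -0.24 (SE 0.17, edgeR adjusted p = 0.548) as its log2 fold change. Rbp4, which encodes the retinol carrier that travels with transthyretin, had -0.08 (SE 0.07, edgeR adjusted p = 0.665).

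**Figure D2:**
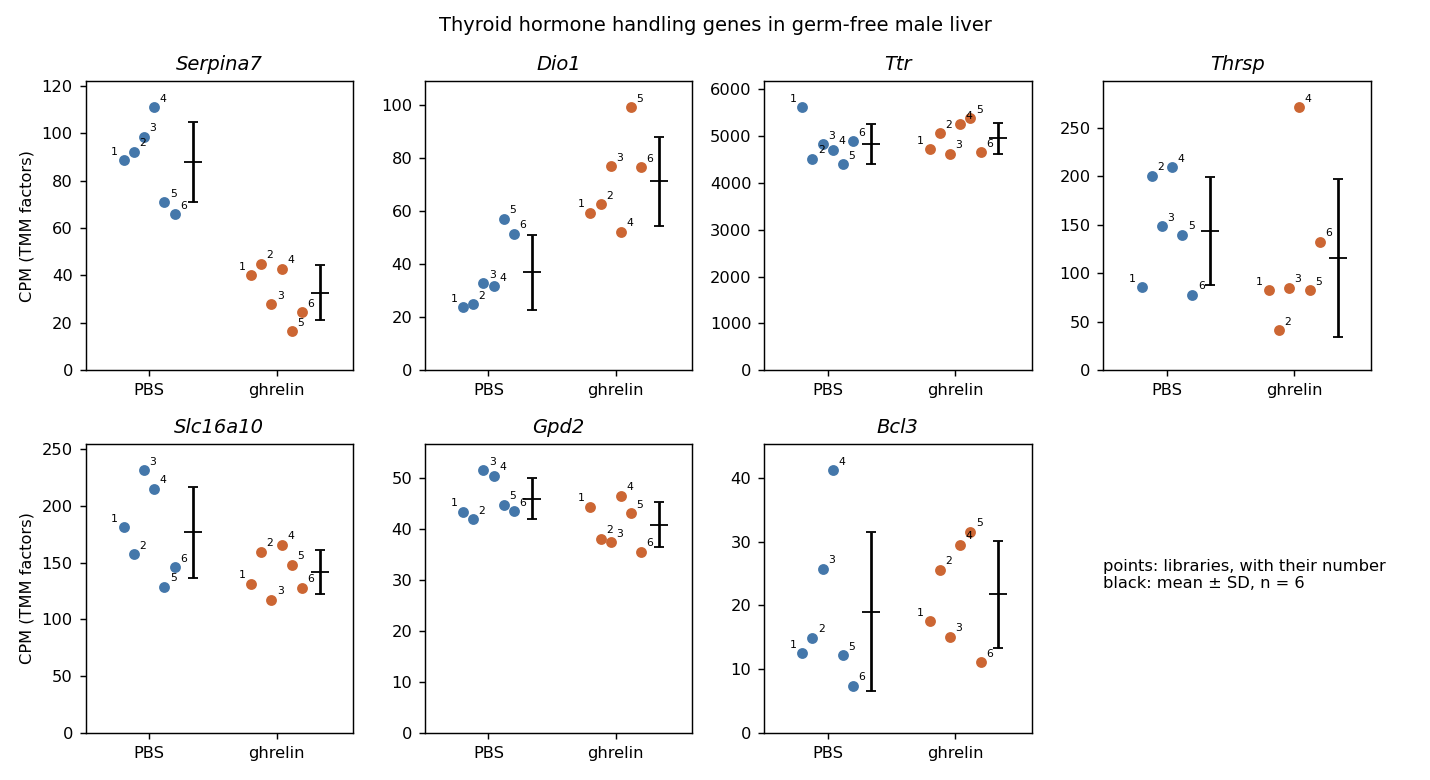
Levels in CPM (y axis, starting at 0) are plotted for each of the 7 genes in the 6 PBS and the 6 ghrelin libraries, each point carrying its library number, with the mean and SD in black. The groups are separate for Serpina7, and for Dio1 they meet at PBS 5 (57.3 CPM) and ghrelin 4 (52.3 CPM), while the other 5 genes overlap widely.

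Slc16a10 encodes a transporter of aromatic amino acids (TAT1, also named MCT10) that also carries triiodothyronine and thyroxine across cell membranes. It measured 128.6, 169.1 and 231.5 CPM as the lowest, median and highest PBS library and 117.4, 139.8 and 165.9 CPM in the ghrelin group. The groups overlapped, but PBS 1, PBS 3 and PBS 4 (181.0, 231.5 and 214.9 CPM) lay above every ghrelin library. The means were 177 ± 40.3 and 142 ± 19.1 CPM, and the log2 fold change of -0.32 (SE 0.13) did not pass the edgeR test (adjusted p = 0.330).

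Of 15 genes fixed as thyroid hormone transporters, 11 were tested, and 1, Slco1a4, was called by edgeR, beside 0.106% of all tested genes. The median log2 fold change of the 11 was -0.07, against 3.19e-05 over all tested genes. Slco1a4 encodes an organic anion transporter (Oatp1a4) that accepts thyroid hormones among many other substrates. It measured 76.4, 45.6, 63.3, 63.8, 34.7 and 41.9 CPM in PBS 1 to PBS 6 and 30.9, 23.2, 21.9, 27.7, 24.4 and 31.6 CPM in ghrelin 1 to ghrelin 6. Every ghrelin library lay below every PBS library, and as with Serpina7 the lowest PBS libraries were PBS 5 and PBS 6. Slco1a4 fell by 1.03 on the log2 scale (SE 0.17, edgeR adjusted p = 0.0292), from 54.3 ± 15.9 to 26.6 ± 4.10 CPM. That call was lost in 7 of 12 fits that left out a library, namely PBS 3, PBS 4, ghrelin 1, ghrelin 2, ghrelin 3, ghrelin 5 or ghrelin 6. The log2 fold change ran from -1.12 to -0.90 and the edgeR adjusted p from 0.0267 to 0.101 over those 12 fits.

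The other tested transporters had smaller log2 fold changes. Slco1b2, the abundant hepatocyte transporter Oatp1b2, measured 403 ± 49.4 CPM per kb with PBS and had a log2 fold change of -0.16 (SE 0.08). Slc10a1, the bile acid transporter NTCP that also takes up thyroid hormone conjugates, had -0.20 (SE 0.08). Neither passed the edgeR test (adjusted p = 0.407 and 0.310).

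Dio1 encodes type 1 deiodinase, which removes iodine from thyroxine to give triiodothyronine and also clears reverse triiodothyronine. It measured 23.7, 24.8, 32.9, 31.6, 57.3 and 51.5 CPM in PBS 1 to PBS 6 and 59.5, 62.7, 77.1, 52.3, 99.3 and 76.7 CPM in ghrelin 1 to ghrelin 6. The groups overlapped only through PBS 5, which lay above ghrelin 4, and 5 of 6 ghrelin libraries were above every PBS library. The means were 37.0 ± 14.1 and 71.3 ± 16.8 CPM (SD, n = 6 each), a ratio of 1.93, with a log2 fold change of 0.94 (SE 0.21).

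Whether Dio1 was called depended on the test, the filter and the libraries. The edgeR adjusted p was 0.115, it was 0.0186 without a filter on low counts, and the DESeq2 adjusted p was 0.0287. The adjusted p was 0.195 in the robust edgeR test, 0.109 in limma-voom and 0.111 in edgeR with a stricter filter. Of 9 other settings on all 12 libraries, 3 called Dio1. Without PBS 5 the log2 fold change was 1.12 and the edgeR adjusted p 0.0475. With PBS 5 and PBS 6 both left out, a choice made after seeing the data, it was 1.33 with an edgeR adjusted p of 0.00371.

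The other deiodinases were scarcely read. Dio2, the type 2 enzyme of brown fat, brain and pituitary, had 0 counts in all 12 libraries together, where 3 counts would be 0.0127 CPM. Dio3, the type 3 enzyme that inactivates thyroid hormone, had 24 counts and 0.0597 CPM per kb with PBS, far below the 18.8 ± 7.15 of Dio1. Of 15 genes of deiodination and selenoprotein synthesis, 13 were tested, 9 with a positive and 4 with a negative log2 fold change, and the median was 0.03. None was called by edgeR, 2 had an unadjusted p under 0.05, both higher, and DESeq2 called 1, Dio1. The factors that place selenocysteine, which Dio1 needs, lay near the all-gene median: Sephs2, the selenophosphate synthetase, had 0.03 (SE 0.07), Secisbp2, which binds the selenocysteine insertion element, 0.02 (SE 0.07), and Eefsec, the selenocysteine elongation factor, 0.10 (SE 0.06). Gpx1, a selenoenzyme that removes hydrogen peroxide, had 0.24 (SE 0.08, edgeR adjusted p = 0.248). Txnrd1, a thioredoxin reductase and also a selenoenzyme, had -0.07 (SE 0.07).

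The spread between libraries of the same group was not used to choose the genes, so Serpina7 was compared with each of the other 6 on it. Among the 6 ghrelin libraries, Dio1 was highest in ghrelin 5, which had the lowest Serpina7, and lowest in ghrelin 4, which had the second highest. Pearson's r of the log2 levels was -0.952 (exact two-sided permutation p = 0.0111, adjusted 0.0917 over 12 relations in both groups) and Spearman's rho -0.771 (exact p = 0.103, adjusted 0.308). Among the 6 PBS libraries, PBS 5 and PBS 6 had the highest Dio1 and the lowest Serpina7. There r was -0.735 (exact permutation p = 0.1, adjusted 0.3) and rho -0.429 (exact p = 0.419, adjusted 0.719).

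With the group means removed, r over the 12 libraries was -0.731 (permutation p = 0.0015, adjusted 0.009 over 6 relations) and rho was -0.664 (permutation p = 0.0116, adjusted 0.0694). Thus r passed the threshold and rho did not. Leaving out ghrelin 2 and ghrelin 5, the libraries farthest from the median of Serpina7, gave r = -0.734 over 10 libraries. Leaving out each library in turn gave -0.80 to -0.69, with adjusted p from 0.0096 to 0.0261. With PBS 5 and PBS 6 both left out, r was -0.739 with a permutation p adjusted to 0.173. PBS 5 and PBS 6 lay apart from PBS 1 to PBS 4 on these genes. Among PBS 1 to PBS 4 the library with the lowest Dio1, PBS 1, also had the lowest Serpina7, so the negative relation within the PBS group rested on PBS 5 and PBS 6.

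The ratio of Dio1 to Serpina7 shows the same data library by library. It was 0.267, 0.269, 0.335, 0.285, 0.808 and 0.782 in PBS 1 to PBS 6 and 1.49, 1.39, 2.76, 1.22, 6.03 and 3.13 in ghrelin 1 to ghrelin 6. Every PBS library was below 1 and every ghrelin library above it, which follows from the same contrast that chose Serpina7. PBS 5 and PBS 6 stood between the other 4 PBS libraries and the ghrelin group.

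**Figure D3:**
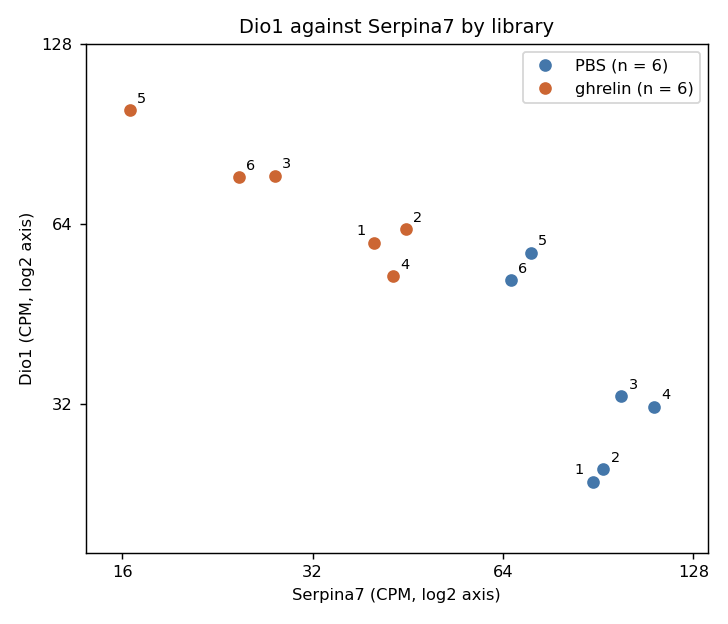
Dio1 (y axis, CPM) is plotted against Serpina7 (x axis, CPM), both on log2 axes, for the 6 PBS and the 6 ghrelin libraries with their numbers. Within the ghrelin group the points run from ghrelin 5 (16.5 and 99.3 CPM) to ghrelin 4 (42.8 and 52.3 CPM), and PBS 5 and PBS 6 lie apart from the other 4 PBS libraries.

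The other members followed Serpina7 less closely over 12 libraries with group means removed. The values of r were 0.486 for Slc16a10, 0.379 for Bcl3, 0.315 for Gpd2, 0.177 for Thrsp and -0.03 for Ttr, with permutation p adjusted to 0.205, 0.379, 0.583, 0.794 and 0.915. The values of rho were 0.580, 0.503, 0.357, 0.154 and 0.119, with permutation p adjusted to 0.116, 0.180, 0.463, 0.721 and 0.721. That Dio1 followed Serpina7 most closely depended on ghrelin 2 and ghrelin 5. Without both, r over 10 libraries was 0.808 for Gpd2, 0.806 for Bcl3 and 0.73 for Slc16a10, against -0.734 for Dio1. It was 0.530 for Thrsp and 0.272 for Ttr. Ghrelin 5, with the lowest Serpina7 and the highest Bcl3 of its group, weighed on these values. Without it, r was 0.775 for Slc16a10 (permutation p adjusted to 0.0188) and 0.852 for Bcl3 (adjusted 0.006). For each gene this was the 1 fit that passed of the 12 that left out 1 library. Over those 12 the adjusted permutation p reached 0.410 for Slc16a10 and 0.830 for Bcl3. Within the PBS group alone, Bcl3 ranked the libraries in the same order as Serpina7 (rho 1, exact permutation p = 0.00278, adjusted 0.0333 over 12 relations; r 0.909, exact p = 0.0153, adjusted 0.0917). Among the members themselves, r was 0.802 between Slc16a10 and Bcl3, 0.722 between Gpd2 and Bcl3 and 0.630 between Slc16a10 and Gpd2, given as descriptions of the same 12 libraries.

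Thrsp, the gene of the thyroid hormone responsive protein Spot 14, is induced by triiodothyronine and by carbohydrate and takes part in fatty acid synthesis. It measured 85.6, 200.4, 148.2, 209.3, 139.4 and 77.8 CPM in PBS 1 to PBS 6 and 82.2, 41.0, 85.0, 270.9, 82.3 and 132.5 CPM in ghrelin 1 to ghrelin 6. Ghrelin 4 was the highest library of all 12 and ghrelin 2 the lowest, so the ghrelin group spanned the whole PBS range. The log2 fold change was -0.31 (SE 0.37, edgeR adjusted p = 0.756). It ran from -0.76 without ghrelin 4 to -0.13 without ghrelin 2 over the 12 fits that left out 1 library, and none of them made a call.

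Fasn, the fatty acid synthase, was likewise highest of its group in ghrelin 4, at 496.7 CPM against 237.2 to 333.2 CPM in the other 5 ghrelin libraries, and this lay within the PBS range of 323.6 to 655.1 CPM. Over the groups Fasn had a log2 fold change of -0.57 (SE 0.19, edgeR adjusted p = 0.243). Of the 9 genes fixed as Thrsp and its partners in lipogenesis, all were tested, 3 positive and 6 negative, with a median of -0.16. No call was made by edgeR or DESeq2, and 2 had an unadjusted p under 0.05, 1 in each direction: Mlxipl, which encodes the carbohydrate response factor ChREBP, at 0.30 (SE 0.12), and Srebf1, which encodes a sterol response factor, at -0.35 (SE 0.13).

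Gpd2 encodes the mitochondrial glycerol-3-phosphate dehydrogenase, an enzyme of the glycerol phosphate shuttle and a classic thyroid hormone target in liver. Its lowest, median and highest libraries were 42.0, 44.2 and 51.6 CPM in the PBS group and 35.6, 40.6 and 46.6 CPM in the ghrelin group. Ghrelin 2, ghrelin 3 and ghrelin 6 (38.1, 37.5 and 35.6 CPM) lay below every PBS library, and the other 3 lay within the PBS range. The means were 46.0 ± 4.06 and 40.9 ± 4.40 CPM, with a log2 fold change of -0.17 (SE 0.08, edgeR adjusted p = 0.363). Of 10 genes of the glycerol phosphate and other NADH shuttles, Gpd2 among them, none was called by edgeR. Unadjusted p-values under 0.05 were seen for 1 higher and 2 lower, and DESeq2 called 1 in each direction. Gpd1, the cytosolic partner of Gpd2, had 0.39 (SE 0.09) and Got1, the cytosolic aspartate aminotransferase, -0.54 (SE 0.14).

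Bcl3 encodes a nuclear member of the inhibitor of NF-kappaB family, and its transcript has been described as responsive to triiodothyronine. It measured 12.5, 14.95, 25.7, 41.2, 12.2 and 7.39 CPM in PBS 1 to PBS 6 and 17.5, 25.6, 15.1, 29.5, 31.5 and 11.04 CPM in ghrelin 1 to ghrelin 6. PBS 4 was the highest and PBS 6 the lowest of the 12, so the groups overlapped fully. The means were 19.0 ± 12.5 and 21.7 ± 8.34 CPM, with a log2 fold change of 0.20 (SE 0.36, edgeR adjusted p = 0.856). It ran from 0.03 without PBS 6 to 0.57 without PBS 4 over the fits that left out 1 library, and with PBS 5 and PBS 6 both left out the sign turned, to -0.12. Of 12 genes of the NF-kappaB family and its regulators, Bcl3 among them, 11 were tested. No gene of them was called by edgeR or DESeq2, and 0 had an unadjusted p under 0.05.

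Acute phase transcripts differed strongly between libraries of a group. Saa1, a serum amyloid A gene that liver induces in inflammation, measured 47.9, 321, 1225, 1159, 43.3 and 59.9 CPM in PBS 1 to PBS 6 and 76.4, 168, 50.9, 697, 484 and 41.6 CPM in ghrelin 1 to ghrelin 6. The libraries with the highest Bcl3 in each group, PBS 3, PBS 4, ghrelin 4 and ghrelin 5, were those with the highest Saa1. Of 21 acute phase genes, all were tested, and the median log2 fold change was -0.18 over 5 positive and 16 negative values. Neither edgeR nor DESeq2 called any, and 2 had an unadjusted p under 0.05, 1 in each direction. Their summed level ran from 43913 to 70451 CPM in the PBS group and from 47730 to 60167 CPM in the ghrelin group. Their part in the levels of Serpina7, Slc16a10 and Bcl3 was not tested.

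The rest of the thyroid hormone pathway was read from lists of transporters, deiodination, conjugation, receptors and triiodothyronine-induced genes together with the carriers. Beyond the 7 members these 6 lists held 76 genes, of which 67 were tested. Slco1a4 was the 1 gene called by edgeR, beside 0.106% of all tested genes. An unadjusted p under 0.05 was seen for 4 higher and 11 lower genes, together 15 of 67, beside 13.4% of all tested genes. The log2 fold change was positive for 21 and negative for 46, with a median of -0.08. DESeq2 called 1 higher, Nr1d1, and 4 lower, among them Ppargc1a, Slco1a4 and Sult1d1, beside 1.83% of all genes it gave an adjusted p.

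Conjugation makes thyroid hormone soluble for excretion, by glucuronidation (UGT enzymes) and by sulfation (SULT enzymes). Of 11 such genes 10 were tested, 2 positive and 8 negative, with a median of -0.14. The edgeR test called 0 of them. An unadjusted p under 0.05 was seen for 1 higher and 4 lower, beside 13.4% of all tested genes in either direction. Sult1d1, a sulfotransferase, had -0.51 (SE 0.14, edgeR adjusted p = 0.172), from 215 ± 46.4 to 151 ± 29.5 CPM, and was the 1 gene of the list that DESeq2 called (adjusted p = 0.0314). Sult1a1, a phenol sulfotransferase, had -0.40 (SE 0.13) and Ugt2b1, a glucuronosyltransferase, 0.44 (SE 0.15). Ugt1a1, Ugt1a6a, Ugt1a6b and Ugt1a9 share exons in mouse and had near-equal log2 fold changes of -0.14, -0.15, -0.15 and -0.13, so how reads were divided among them is uncertain. Ugt1a6a and Ugt1a6b had 202680 and 202340 counts in all, and both are among the 4 lower. The tallies of this list and of the whole pathway may therefore count the same reads more than once.

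Among receptors and their cofactors, Thrb, the beta receptor, was the more abundant of the receptor genes in both groups. It measured 7.39 ± 0.67 CPM per kb with PBS and 6.40 ± 1.17 with ghrelin, against 1.73 ± 0.29 and 1.64 ± 0.25 for Thra, the alpha receptor. The Thrb log2 fold change was -0.20 (SE 0.10, edgeR adjusted p = 0.411) and that of Thra -0.08 (SE 0.13). Of 19 genes 18 were tested, 5 positive and 13 negative, with a median of -0.05. None was called by edgeR, and 2 higher and 1 lower had an unadjusted p under 0.05: Nr1d1 at 0.36 (SE 0.10), Rxrb, a retinoid X receptor, at 0.16 (SE 0.07) and Ep300, a coactivator, at -0.17 (SE 0.08). Nr1d1, the clock repressor REV-ERB alpha, lies on the opposite strand over one end of Thra, and the strand setting of the counting is not given, so reads of these genes may not be fully separated.

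Of 22 genes known to be induced by triiodothyronine in liver, members included, 21 were tested, 4 positive and 17 negative, with a median of -0.19. None was called by edgeR. An unadjusted p under 0.05 was seen for 1 higher, Dio1, and 6 lower, beside 13.4% of all tested genes in either direction. Ppargc1a, the coactivator PGC-1 alpha, went from 27.3 ± 7.68 to 13.2 ± 3.56 CPM, a log2 fold change of -1.06 (SE 0.20, edgeR adjusted p = 0.0564). It was called by DESeq2 (adjusted p = 5.7e-05). Me1, the malic enzyme, had -0.23 (SE 0.25) and Klf9, a transcription factor induced directly by the receptor, -0.08 (SE 0.08). Within this list Dio1 was thus the largest positive value, and the next was the 0.20 of Bcl3.

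**Figure D4:**
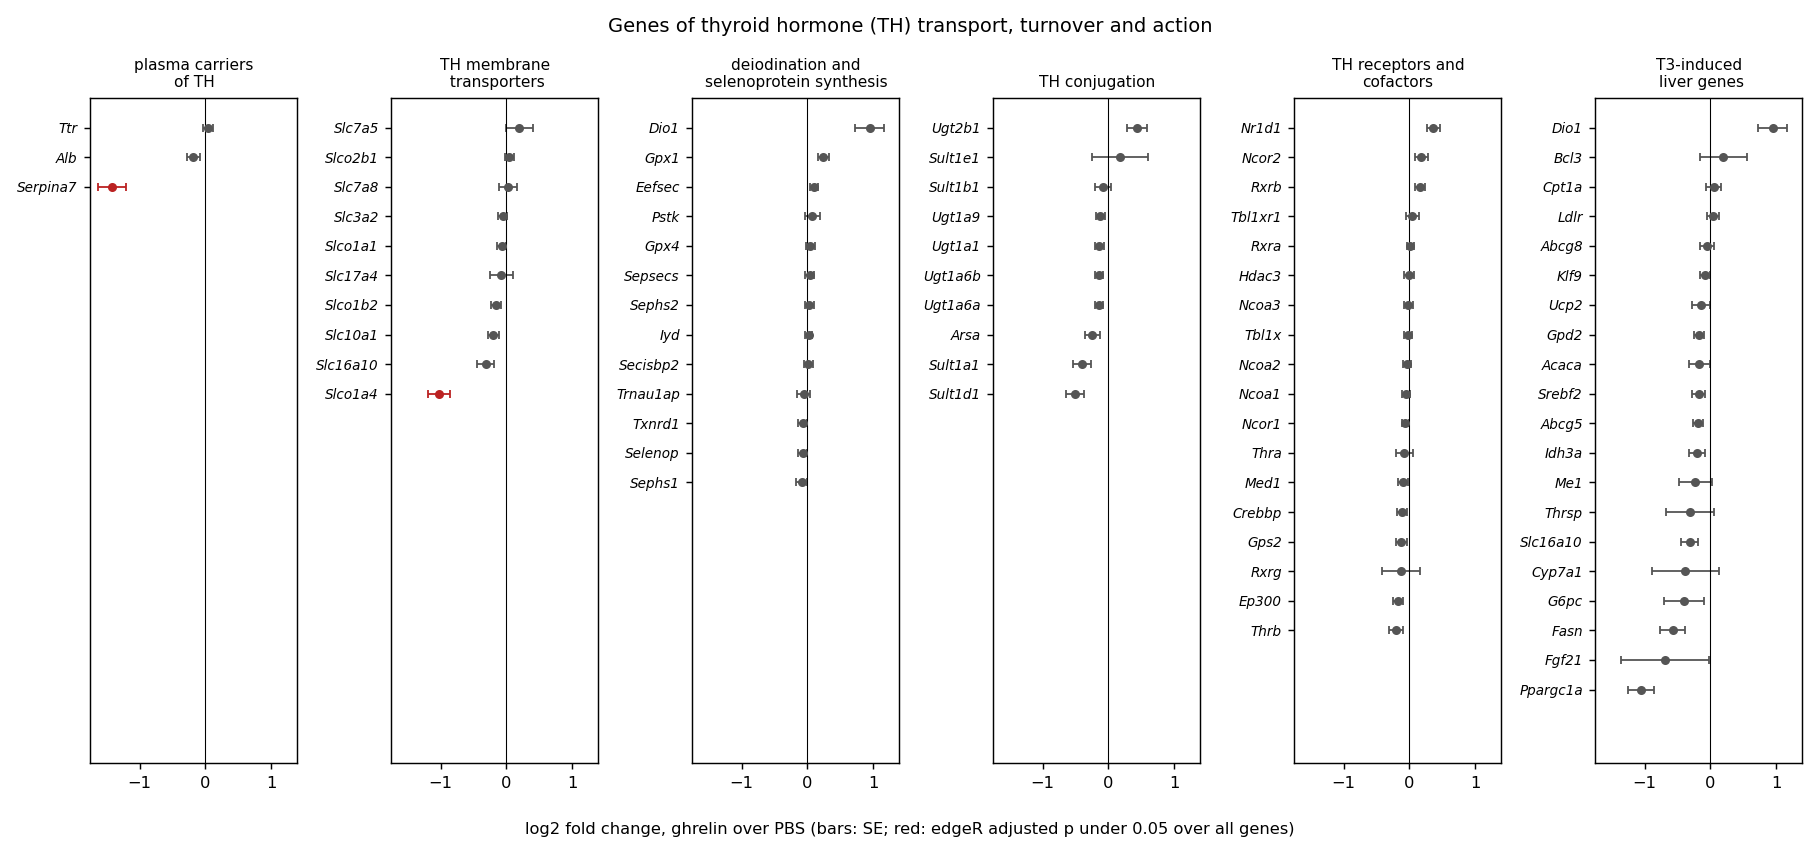
The log2 fold change (x axis, ghrelin over PBS, bars SE) is plotted for tested genes of the 6 thyroid hormone lists that are reported here, with red for an edgeR adjusted p under 0.05 over all tested genes. Serpina7 and Slco1a4 are red at -1.42 and -1.03, and Dio1 has the largest positive value at 0.94.

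The tissue read as liver and not as other thyroid hormone handling tissues. The 8 hepatocyte markers summed to between 97357 and 132170 CPM in the PBS group and between 92104 and 107630 CPM in the ghrelin group, with 7 of 8 negative and a median of -0.17 on the log2 scale. The edgeR test called 0 of them, and 3 were lower at an unadjusted p under 0.05, beside 13.4% of all tested genes in either direction. DESeq2 called 2 lower, Cps1, the urea cycle enzyme, and Tat, the tyrosine aminotransferase, beside 1.83% of all genes it gave an adjusted p. Of 8 thyroid follicular cell markers none passed the filter on low counts. Nkx2-1 was at 0 in every library, and the 8 summed to at most 0.272 CPM in the PBS group and 0.495 CPM in the ghrelin group. Of 6 markers of the choroid plexus, the other main site of Ttr expression, 1 was tested, the water channel Aqp1, which endothelium also expresses. Otx2 was at 0 and Kl had 3 counts in all.

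Markers of other liver cells had overlapping sums: 226 to 420 CPM with PBS and 302 to 404 with ghrelin for 10 Kupffer cell genes, 407 to 461 and 421 to 453 for 8 endothelial genes, and 411 to 462 and 402 to 463 for 8 stellate genes. The 10 neutrophil and lymphocyte genes summed to 4.51 to 9.03 CPM with PBS and 1.63 to 4.77 with ghrelin, and 2 of them, S100a8 and S100a9, were tested. Both were lower at an unadjusted edgeR p under 0.05, beside 13.4% of all tested genes in either direction. Their median log2 fold change was -1.21, and edgeR called neither. S100a8 had a log2 fold change of -1.44 (SE 0.36, edgeR adjusted p = 0.145), while Ly6g and Mpo had 4 counts each. The part of these cells in the Serpina7 difference was not tested.

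The serpin family held 67 symbols, and 35 serpin entries were tested, with Serpina11 present under more than 1 identifier. Of these entries 26 were positive and 9 negative, with a median of 0.10. Serpina7 was the 1 entry called by edgeR, beside 0.106% of all tested genes. Those with the next smallest p were Serpina1e, an alpha-1-antitrypsin gene, at 0.48 (SE 0.11), Serpina12, which encodes vaspin, at 0.89 (SE 0.24) and Serpina9 at 1.20 (SE 0.36). None of these 3 was called by edgeR, and DESeq2 called Serpina1e (adjusted p = 0.00402). The Serpina1 copies of the mouse are near-identical, so the Serpina1e value is uncertain.

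The genes whose levels were most like Serpina7 between libraries were ranked by Pearson's r with group means removed, over 12 libraries and 11369 genes with a mean of at least 1 CPM. Among the highest were 7SK (0.937), Slc30a10 (0.932), Tmem38b (0.924) and Ddhd2 (0.920), and the lowest Mmp19 (-0.961), Snap47 (-0.932) and Fam125a (-0.923). None of these 7 was called between the groups, and Slc30a10 measured 58.4 and 59.0 CPM in the PBS and ghrelin groups. Only 47 genes exceeded 0.8 and 46 lay below -0.8, and Dio1 ranked 119 from the lowest. For Dio1 the highest were Hnrnpa1 (0.892), Cachd1 (0.886), Rogdi (0.870), Fis1 (0.867) and Trim26 (0.858), and the lowest Morc4 (-0.897), Acnat2 (-0.884) and Zfp142 (-0.882). Serpina7 ranked 88 from the lowest there.

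The remaining members lie as follows in GENCODE M21 on GRCm38, and all are protein-coding. Ttr spans chromosome 18 from 20665280 to 20674321 and Gpd2 chromosome 2 from 57237635 to 57370719, both on the plus strand. Thrsp spans chromosome 7 from 97412938 to 97417730, Bcl3 chromosome 7 from 19808462 to 19822770 and Slc16a10 chromosome 10 from 40033532 to 40142258, all on the minus strand. Opposite-strand transcripts overlap Slc16a10 (Gm25613), Gpd2 (A930012O16Rik and Gm13535) and Bcl3 (Gm16175 and Gm16174), and reads from them cannot be told apart from those of the member unless the counting used strand.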

How the data were processed

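The 12 liver libraries were made for stranded total RNA sequencing after ribosomal RNA depletion, per the labels' protocols. The authors deposited raw counts of reads over exons, 1 row per gene. Per the submitters' processing notes, STAR 2.4.0i and the build mm10 were used. The counting tool, annotation, strand setting and treatment of multi-mapping reads were not given in the sources used here.

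The members and gene lists were chosen with earlier results of these data known. From the counts, edgeR 4.0.16 in R 4.3.3 fitted a quasi-likelihood model of ghrelin against PBS over all 12 libraries after filterByExpr (minimum count 10, minimum total 15) with TMM factors, leaving 14170 of 38087 genes, and p-values were adjusted by Benjamini-Hochberg over all tested genes. Each SE of a log2 fold change is its absolute value divided by the square root of the quasi-likelihood F statistic. CPM uses the same factors, and log2 levels a prior count of 2. Correlations used 100000 permutations within groups, or all 720 orders within 1 group. There the smallest two-sided permutation p is 0.001389 for r and 0.00278 for rho. Libraries of a group differed by 11.8 to 49.3 times the sampling noise by chi-square over its degrees of freedom, and each was counted once. Total counts of 15775059 to 22302533 limit genes of low level. The script was tested on simulated data.

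Named were the 7 members, up to 3 genes with the smallest p and each called gene of every list, the 5 genes most like and 3 most unlike Serpina7 and Dio1, and serpins by the same p rule. Shuttle, lipogenic, carrier, receptor and target genes beyond that rule were named after their values were seen, as were Saa1 and the deiodinases and selenoprotein factors. Alternatives were other library scalings, filters, DESeq2 1.42.0, limma 3.58.1 (voom), the robust edgeR test, a block for the replicate number, each library left out and, chosen after seeing the data, PBS 5 and PBS 6 both left out. Positions come from GENCODE M21 and promoter sequences from RefSeq on GRCm38.p6. Protein sequences were not used here. Some genes that the rule takes in are counted but not reported by name.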

Additional observations from a re-analysis of the deposited data

Results flagged for a closer look

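In each group of 6, the highest or lowest library was compared with its nearest neighbour for 23 named genes, in 46 groups of libraries; chance marks about 1 in 20 groups, and 2 were marked. Both were in the library ghrelin 4. Sult1a1 measured 423.7 CPM there, against 254.8 to 317.6 CPM in the other ghrelin libraries. Fasn measured 496.7 CPM there, against 237.2 to 333.2 CPM.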

How the results depend on the processing

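With the replicate number as a replicate block, edgeR called 58 genes and 3 pathway genes, and Dio1 was called at 0.99 (adjusted p = 0.00981). Same-numbered libraries did not deviate together in every pair (r from -0.08 to 0.27), and 4 of 12 libraries were closest to their own number. The median r was 0.07 for the same number and -0.02 for other numbers. So few values cannot show whether the numbers pair the samples, and the main fit used no block. The block changed no other member's call. Without a filter the test called 63 genes, 3 pathway genes and Dio1 (0.94, adjusted p = 0.0186), DESeq2 204, 5 and Dio1 (0.95), and the robust test 9 genes, 0 pathway genes (15 at an unadjusted p under 0.05) and not Serpina7 (-1.42). With PBS 5 and PBS 6 both left out, 148 genes, 5 pathway genes and Dio1 (1.33) were called, the Bcl3 log2 fold change was -0.12, and r of Serpina7 with Dio1 was -0.739 but no longer passed. With library totals alone, r of Serpina7 with Ttr was 0.013. The cause of these shifts was not tested.

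Leaving out each library in turn gave 0 to 32 called genes (0 without ghrelin 1, with 1675 at an unadjusted p under 0.05, and 0 without ghrelin 3, with 1536) and 0 to 2 pathway genes. The log2 fold change ran from -1.53 to -1.28 for Serpina7 and from 0.83 to 1.12 for Dio1. The r with Serpina7 ran from -0.149 to 0.361 for Ttr, -0.094 to 0.547 for Thrsp, 0.424 to 0.775 for Slc16a10 and 0.273 to 0.852 for Bcl3. Under the 9 other settings on all 12 libraries, the log2 fold changes of Ttr, Thrsp, Slc16a10, Gpd2 and Bcl3 kept their sign and none was called. Genes at a few counts, such as Dio3, were below what this depth can compare.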
